A study of Rattus norvegicus with 6 samples.

Results

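The 35 genes described here are the glycolytic enzymes, with their transporters and regulators, and well-known targets of the hypoxia-inducible factors, taken by gene symbol from the table of estimated counts of cultured rat aortic cells. All 35 were found among the 16770 genes of the table. The spontaneously hypertensive rat (SHR), an inbred model of hypertension, was compared with the Wistar Kyoto rat (WKY), the normotensive strain usually set against it. Pieces of the proximal aorta of 3-month-old rats were laid on culture plastic with the luminal side down, and the cells that grew out, labelled endothelial, were kept in an endothelial medium with serum and growth supplement, with no treatment named for either strain. Each strain had 3 libraries of total RNA. Replicates 1 and 2 of each strain were labelled batch 1 and replicate 3 of each strain batch 2. The labels give a number per strain but do not say whether each library came from its own animal, and the p-values therefore reflect only how far these libraries varied, which may in part be technical. They also do not say what the batches differ in, nor the oxygen level, cell density or passage of the cultures.

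Glycolysis breaks glucose down to pyruvate in the cytosol, and lactate dehydrogenase turns pyruvate into lactate where it is not passed to the mitochondria. Endothelial cells are known to draw much of their ATP from this route. When oxygen is short, the hypoxia-inducible factors HIF-1 alpha (Hif1a) and HIF-2 alpha (Epas1) escape the prolyl hydroxylases that mark them for destruction, pair with ARNT and bind DNA at a short core motif, which raises the transcription of most glycolytic enzymes and of genes such as Adm, Bnip3 and Egln3. Much of this control acts on the HIF proteins and not on their mRNA, and only mRNA was measured here.

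Total estimated counts were 18588818, 18555969 and 19947286 in SHR libraries 1 to 3, against 18556104, 18520914 and 18462032 in WKY libraries 1 to 3. Levels are counts scaled by library size with TMM factors (CPM), on which scale 3 counts, the limit that a count of 0 allows for counting error alone, came to 0.151 to 0.187 CPM. The 35 genes held 1.06% to 1.42% of all counts in SHR libraries and 1.26% to 1.38% in WKY libraries. The cell type label was checked against 16 endothelial markers, of which 14 were in the table and 5 had counts enough for a test. Their summed level was 50.8 to 77.8 CPM in SHR and 25.9 to 102 CPM in WKY, most of it from Flt1 and Egfl7, while Pecam1 reached at most 2.18 CPM, and Cdh5, Tie1 and Sox18, which define the cell type, did not pass 3 counts in any library. Fibroblast markers summed to 12322, 9611 and 18789 CPM in SHR against 4320, 7134 and 12179 CPM in WKY, and smooth muscle markers to 899, 835 and 1873 CPM in SHR against 742, 820 and 8067 CPM in WKY. Col1a1 and Gsn gave most of the fibroblast sums. Col1a1 was the larger except in SHR 3, where Gsn had 11357 CPM and Col1a1 4560 CPM. Mesothelial markers summed to 397, 551 and 1370.2 CPM in SHR and 679, 340 and 174 CPM in WKY. Macrophage markers stayed between 28.9 and 67.8 CPM in SHR and between 30.4 and 55.7 CPM in WKY, with Ptprc and Adgre1 at 0 in all 6 libraries. Cd68 and Cd14 gave nearly all of these sums, while Lyz2 and Csf1r reached at most 0.312 and 0.582 CPM. In bulk RNA, fewer cells of a type and less RNA per cell cannot be told apart.

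The upstream sequences of 4 of these genes are shown because they carry the HIF core motif and belong to genes whose levels are described in detail: Aldoc and P4ha1, higher in batch 2, Ldha, lower in batch 2, and Ddit4, the gene with the smallest strain p-value. Each run is the 250 bases before the transcription start, 5′ to 3′ on the gene's strand, from RefSeq on the GRCr8 assembly, whose coordinates are not those of the Rnor_6.0 build named for the counts. Capitals mark the letters ACGTG or GCGTG, or their reverse complements CACGT and CACGC, and overlapping matches run together.
Aldoc, aldolase C, chr10:63715294-63715543, plus strand: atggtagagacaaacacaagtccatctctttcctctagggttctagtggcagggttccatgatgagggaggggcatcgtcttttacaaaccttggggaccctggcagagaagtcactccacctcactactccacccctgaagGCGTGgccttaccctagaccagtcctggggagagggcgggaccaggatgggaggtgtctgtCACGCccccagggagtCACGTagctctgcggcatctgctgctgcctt
P4ha1, collagen prolyl 4-hydroxylase, chr20:27844796-27845045, plus strand: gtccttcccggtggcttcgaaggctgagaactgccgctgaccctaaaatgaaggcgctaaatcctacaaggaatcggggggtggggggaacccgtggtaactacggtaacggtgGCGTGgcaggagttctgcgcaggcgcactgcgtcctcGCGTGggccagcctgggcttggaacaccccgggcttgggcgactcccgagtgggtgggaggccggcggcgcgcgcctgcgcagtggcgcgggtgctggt
Ldha, lactate dehydrogenase A, chr1:106507842-106508091, plus strand: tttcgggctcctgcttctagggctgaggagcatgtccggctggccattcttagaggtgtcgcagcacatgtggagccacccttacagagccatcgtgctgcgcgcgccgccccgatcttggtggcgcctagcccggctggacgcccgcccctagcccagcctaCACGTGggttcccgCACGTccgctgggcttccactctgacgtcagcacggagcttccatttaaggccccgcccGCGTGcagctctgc
Ddit4, an inhibitor of mTORC1 signalling, chr20:28437038-28437287, minus strand: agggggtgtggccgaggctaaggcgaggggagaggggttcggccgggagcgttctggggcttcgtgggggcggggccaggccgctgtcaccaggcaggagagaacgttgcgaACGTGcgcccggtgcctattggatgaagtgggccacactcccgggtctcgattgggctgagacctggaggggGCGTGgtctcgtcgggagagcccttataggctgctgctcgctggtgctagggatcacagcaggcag

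Aldoc had 3 matches, P4ha1 and Ddit4 had 2 each, and Ldha had 4, of which an overlapping pair forms the palindrome CACGTG. Across the 31 of the 35 genes with an entry in the RefSeq table, 23 (74.2%) had at least 1 core match on either strand, against 10866 of 27457 genes of that table (39.6%). At least 2 matches were present in 15 of the 31 (48.4%), against 17.7% of all genes, and CACGTG in 5 (16.1%), against 6.18%. The windows of the 31 genes also held a median of 18 CG dinucleotides against 5 in all windows, and both core motifs contain CG, so the part of base composition in the higher share was not tested. A match is a description of letters, not of binding. Slc2a3, Pgk1, Bnip3l and Ndrg1 had no entry. Adm, Epas1, Tpi1, Hk2, Gpi, Pkm, Egln3 and Pfkfb4 had no match in this window, which says nothing of sites elsewhere.

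No gene of the 35 differed between the strains by edgeR's quasi-likelihood test with Benjamini-Hochberg adjustment over all 12614 genes tested, with batch as a term. Of the 35 genes 34 had counts enough for the test, and 0 of these had an adjusted p below 0.05, where 0.254% of all genes tested did. DESeq2's Wald test called 0 as well, against 5.14% of all genes it tested. At an unadjusted p below 0.05, edgeR picked 1 member, Ddit4 (2.94%, against 13.3% of all genes), and DESeq2 picked 3, Ddit4, Adm and Egln3, where 15.7% of all genes it tested were below that value. The fitted log2 fold change, SHR over WKY, was positive for 14 and negative for 20 of the 34, with a median of -0.12. Over all genes it was positive for 5981 and negative for 6633, with a median of -0.02. All SHR libraries lay above all WKY libraries for Ddit4 and Adm, 2 of 34 (5.88%), where 9.81% of all genes had no overlap in either direction.

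**Figure D1:**
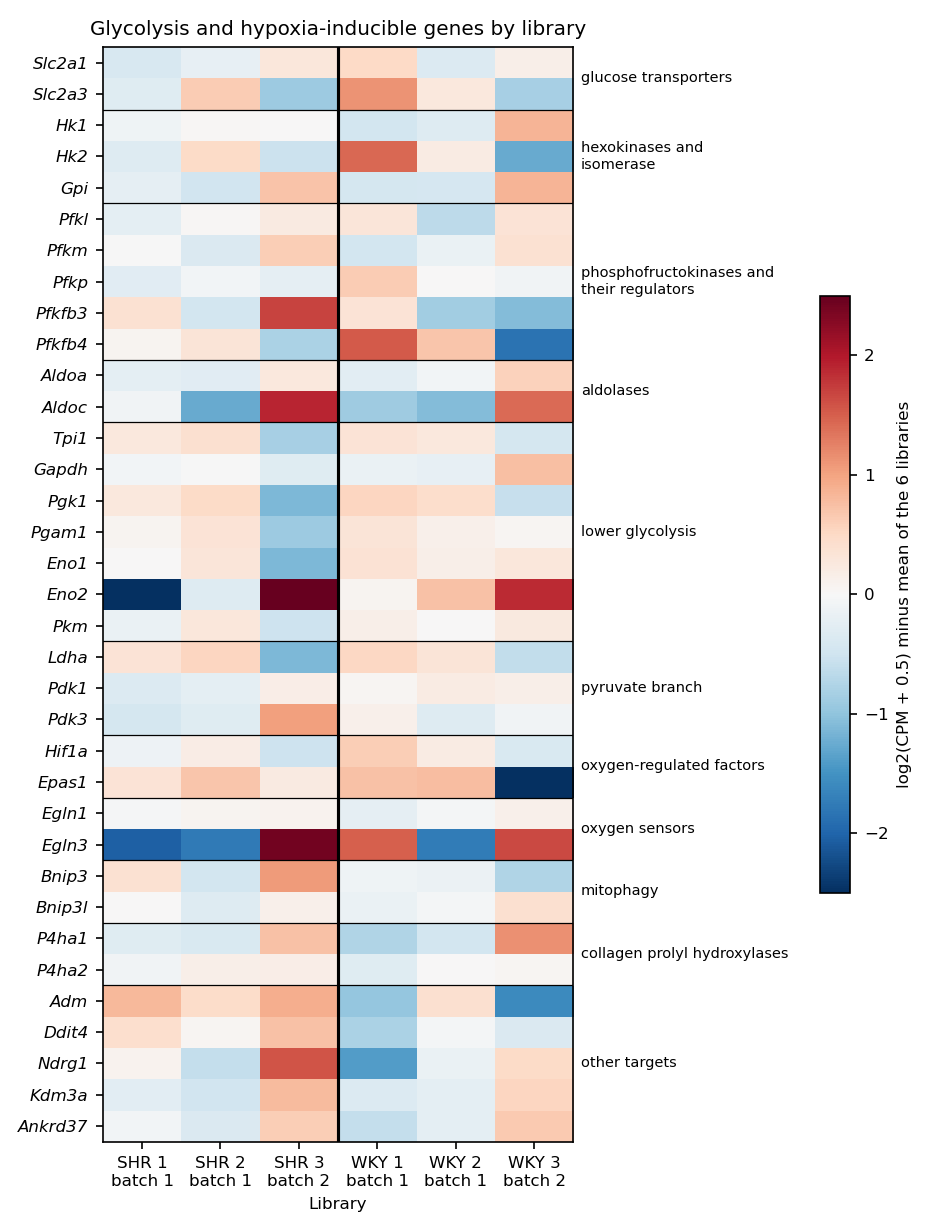
Heat map of the 35 genes (rows, grouped by role) in the 3 SHR and 3 WKY libraries (columns, with their batch). Colour is log2(CPM + 0.5) minus the gene's mean over the 6 libraries, and the darkest colours also stand for values past the ends of the scale; the library of batch 2 stands apart within each strain for Aldoc, Ldha, Pgk1 and P4ha1, and Epas1 is low in WKY 3.

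Calls by batch were more numerous. Of the 34 genes, 13 (38.2%) passed the adjusted threshold for batch 2 over batch 1, with strain as a term, against 43.5% of all genes tested. Of these, 7 were higher in batch 2, where 21% of all genes were, and 6 were lower, where 22.5% of all genes were. These shares lay near the background. DESeq2 called 17 (50.0%, against 46.7% of the 13995 genes it tested), 9 of them higher, where 23.7% of all genes were, and 8 lower, where 23% were. Among the 12614 genes that passed edgeR's filter, as the 34 did, DESeq2 called 6336, a share close to that of the 34. The higher ones in edgeR were Gpi, Pfkm, Aldoa, Aldoc, Ndrg1, P4ha1 and Kdm3a. The lower ones in edgeR were Slc2a3, Pfkfb4, Tpi1, Pgk1, Ldha and Hif1a. The median batch difference was 0.28 on the log2 scale, against 0.00 over all genes. Both libraries of batch 2 lay outside the range of the 4 libraries of batch 1 for 20 genes (58.8%, against 57.6% of all genes), above it for 11 and below it for 9. The sign of the batch difference was the same in SHR and in WKY for 27 genes (79.4%, against 79.2% of all genes). Batch 2 held 1 library of each strain, so each of its libraries weighed heavily. The count of calls also dropped to 8 without SHR replicate 2, a library of batch 1. Gpi, Aldoc, Tpi1, Pgk1, Ldha, P4ha1 and Kdm3a passed in all 12 alternative fits, Pfkm in 10, Ndrg1 and Hif1a in 8, Slc2a3 and Aldoa in 7 and Pfkfb4 in 6. Markers of dividing cells summed to 218 CPM (SHR) and 212 CPM (WKY) in batch 2, against 1348 and 1618 CPM (SHR) and 1196 and 1150.4 CPM (WKY) in batch 1, and all 12 of these markers were called lower in batch 2. The summed smooth muscle markers moved the other way, with 1873 CPM (SHR) and 8067 CPM (WKY) in batch 2 against 742 to 899 CPM in batch 1. Of the 7 tested, 5 were called, all higher (71.4%, against 43.5% of all genes). Tagln was lower in batch 2 in SHR (-0.22 on the log2 scale) and Des in WKY (-2.70). The part of either marker set in the batch differences was not tested, and batch cannot be told apart from whatever else differed between these cultures.

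**Figure D2:**
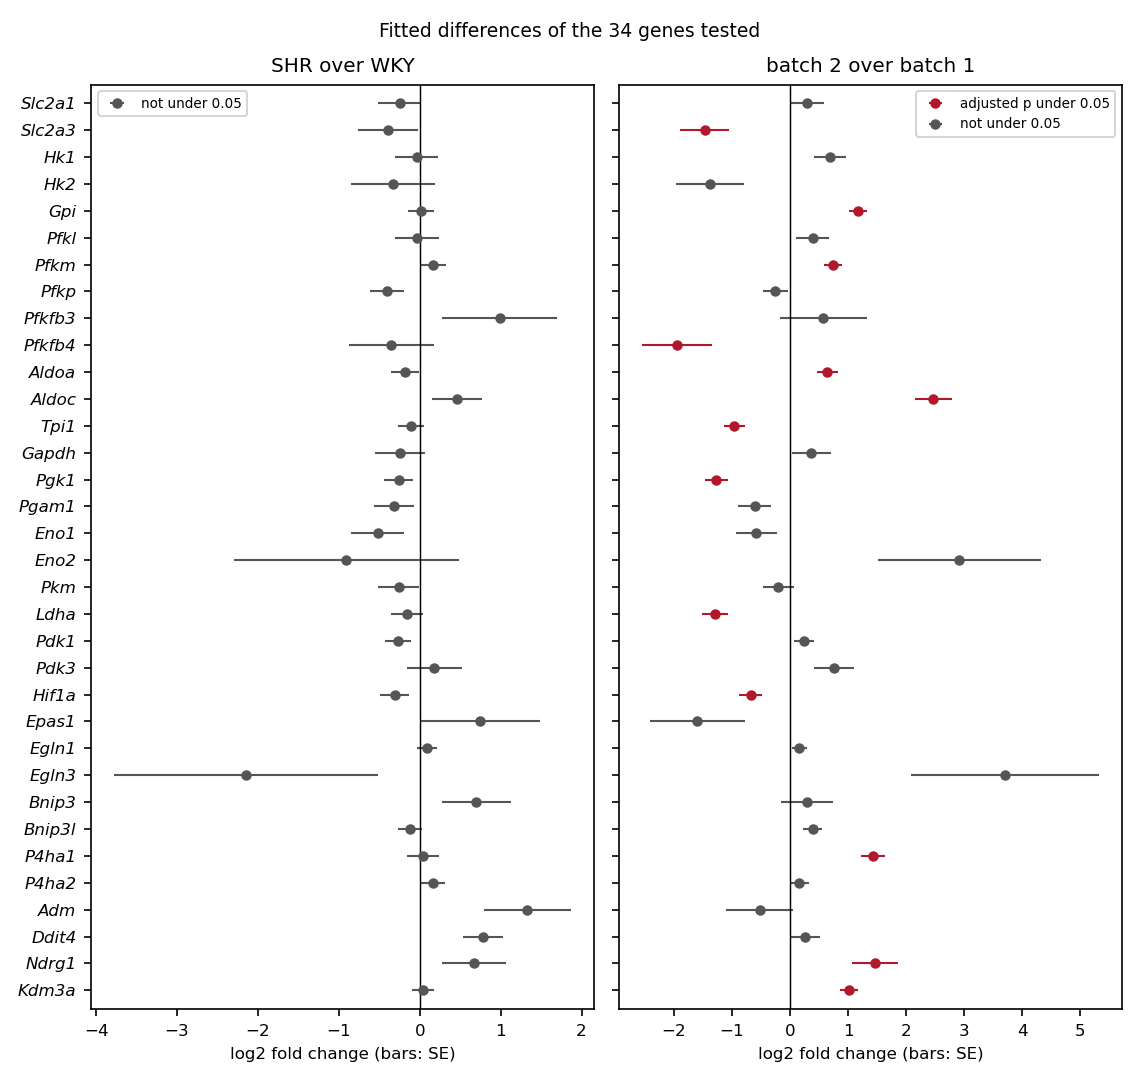
Fitted log2 fold changes of the 34 tested genes, SHR over WKY on the left and batch 2 over batch 1 on the right, from edgeR. Points are estimates, bars are SE and red points have an adjusted p under 0.05; there are 0 such points for strain and 13 for batch, 7 of them above 0.

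Glucose enters cells through the facilitative transporters. Slc2a1 (GLUT1), the widespread basal transporter, had 40.0, 45.4 and 64.0 CPM in SHR libraries 1 to 3, against 75.0, 41.6 and 58.3 CPM in WKY libraries 1 to 3. These ranges overlapped, and the log2 fold change was -0.25 (SE 0.26, adjusted p = 0.713). Slc2a3 (GLUT3), a high-affinity transporter, had 6.14, 12.2 and 3.85 CPM in SHR and 17.3, 9.36 and 4.10 CPM in WKY (log2 fold change -0.39, SE 0.37, adjusted p = 0.691). Both batch 2 libraries were the lowest of their strain for Slc2a3, and the gene was called lower in batch 2 (log2 fold change -1.47, SE 0.42, adjusted p = 0.0365). This call was uncertain, because in all 6 libraries the fractional part of the Slc2a3 count was completed to a whole number by that of another locus, LOC100909595 (tolerance 0.02), as happens when reads are split between near-identical sequences. With the counts of both loci added, the level was 103, 163 and 92.0 CPM in SHR and 93.6, 119 and 84.1 CPM in WKY, the batch difference was -0.43 (adjusted p = 0.183) and the strain difference turned to 0.26.

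Hexokinases trap glucose as glucose 6-phosphate, and Gpi turns that into fructose 6-phosphate. Hk1, the housekeeping hexokinase, had 177, 193 and 190.4 CPM in SHR and 137, 151 and 343 CPM in WKY, so the WKY library of batch 2 lay above the other 5. Hk2, the regulated form and a HIF target, varied over a wide range, with 25.2, 44.5 and 21.9 CPM in SHR and 86.5, 37.0 and 13.1 CPM in WKY (log2 fold change -0.33, SE 0.52, adjusted p = 0.819). Its batch difference of -1.38 did not pass in edgeR (adjusted p = 0.11) and did in DESeq2 (adjusted p = 0.0254). Gpi reached 670.1 CPM (SHR) and 729.8 CPM (WKY) in batch 2, against 351 and 292 CPM (SHR) and 301 and 303 CPM (WKY) in batch 1. It rose 2.25-fold with batch 2 (log2 fold change 1.17, SE 0.16, adjusted p = 0.00389), while the strains differed by 0.02 on the log2 scale (SE 0.16).

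Phosphofructokinase makes fructose 1,6-bisphosphate and is the main control point of the pathway. Its liver (Pfkl), muscle (Pfkm) and platelet (Pfkp) subunits were all measured. Pfkp had the smallest strain p-value of the group, with 38.4, 44.6 and 39.8 CPM in SHR against 73.0, 46.7 and 44.0 CPM in WKY (log2 fold change -0.40, SE 0.21, adjusted p = 0.483), and WKY 1 alone lay well above the rest. Pfkm was 106 CPM (SHR) and 91.0 CPM (WKY) in batch 2, against 50.5 to 69.0 CPM in batch 1, and was called higher there (0.74 on the log2 scale, SE 0.16, adjusted p = 0.0153). Pfkl ranged from 66.4 to 92.9 CPM in SHR and from 49.8 to 100.0 CPM in WKY, with a strain difference of -0.03.

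The bifunctional enzymes Pfkfb3 and Pfkfb4 set the level of fructose 2,6-bisphosphate, the activator of phosphofructokinase, and Pfkfb3 is known as the main such enzyme of sprouting endothelial cells. Pfkfb3 had 118, 66.0 and 295 CPM in SHR and 115, 49.4 and 42.4 CPM in WKY. The SHR library of batch 2 stood apart, and the strain difference of 0.99 (SE 0.71) had an adjusted p of 0.605. Pfkfb4 had 16.5, 19.9 and 8.94 CPM in SHR and 46.6, 25.8 and 4.04 CPM in WKY. Both batch 2 libraries lay below all 4 of batch 1, and the batch call (-1.95, SE 0.60, adjusted p = 0.0495) lay at the threshold.

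Aldolase splits fructose 1,6-bisphosphate into 2 triose phosphates. The ubiquitous Aldoa had 895, 874 and 1282 CPM in SHR and 892, 1017 and 1596 CPM in WKY, and was called higher in batch 2 (0.64, SE 0.18, adjusted p = 0.0329). Aldoc, the form best known from brain, showed the largest fold among the 13 genes called by batch, with 112 CPM (SHR) and 79.3 CPM (WKY) in batch 2, against 27.7 and 11.9 CPM (SHR) and 15.5 and 13.5 CPM (WKY) in batch 1. The fold was 5.55 (log2 2.47, SE 0.32, adjusted p = 0.00345), and the log2 difference within each strain was 2.61 in SHR and 2.45 in WKY. Between strains Aldoc differed by 0.46 (SE 0.31, adjusted p = 0.58).

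The enzymes from triose phosphate to pyruvate all had negative strain estimates, 7 of 7, where 6633 of all 12614 genes did. Of the 7, 0 passed the test in edgeR or DESeq2, with 0 at an unadjusted p below 0.05 in either. The sign rested on single libraries for some: with 1 library left out, Tpi1, Gapdh and Ldha reached 0.03, 0.15 and 0.01. In batch 1 alone Tpi1 and Gapdh were at 0.02 and 0.15. Eno2, whose reads are shared with another locus, was at 0.20 without the batch term. Eno1, the widespread enolase, had the smallest p of these genes, with 1024, 1255 and 465 CPM in SHR against 1304, 1115 and 1236 CPM in WKY (log2 fold change -0.52, SE 0.33, adjusted p = 0.547). Its low level in SHR 3 carried most of that difference, which was -0.09 within batch 1 and -1.41 within batch 2. Pgam1, phosphoglycerate mutase, had the same shape, with 762, 913 and 387 CPM in SHR and 902, 785 and 750.2 CPM in WKY. Pkm, pyruvate kinase, ranged from 1024 to 1778 CPM in SHR and from 1479.9 to 1746 CPM in WKY.

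Tpi1, triose phosphate isomerase, and Pgk1, the kinase that makes the first ATP of the pathway, were called lower in batch 2. Tpi1 was at 186 CPM (SHR) and 243 CPM (WKY) in batch 2, against 397 and 439 CPM (SHR) and 421 and 399.9 CPM (WKY) in batch 1 (-0.96, SE 0.18, adjusted p = 0.00919). Pgk1 was at 218 CPM (SHR) and 322 CPM (WKY) in batch 2, against 573 and 664 CPM (SHR) and 690.2 and 644 CPM (WKY) in batch 1 (-1.27, SE 0.20, adjusted p = 0.00551). For both genes the groups did not overlap. Gapdh, the enzyme between them and a gene often used as a reference, had 3619.9, 3804 and 3085 CPM in SHR and 3388, 3306 and 6375 CPM in WKY, so WKY 3 alone was high. Tpi1 and Gapdh had fractional counts in all 6 libraries, and adding the copies marked by name (Tpi1l1, Gapdhl10, Gapdhl6) changed no call.

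Eno2, the enolase known from neurons and also a HIF target, could not be read on its own. It was listed at 0 in SHR 1, with 12.8 and 107 CPM in SHR 2 and 3 and 16.9, 27.1 and 59.7 CPM in WKY. Its fractional counts were completed by LOC100911625 in all 5 libraries where it was not whole, and that locus held 1084 counts in SHR 1. The sum of both was 56.9, 53.4 and 173 CPM in SHR and 80.4, 108 and 131 CPM in WKY. On the sum, an alternative added after the data were seen, Eno2 was called higher in batch 2 (1.10, SE 0.29, adjusted p = 0.0285), which it was not on its own counts (2.92, SE 1.41, adjusted p = 0.15). The strain difference of the sum was -0.39 (adjusted p = 0.609).

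At the end of the pathway, Ldha, which makes lactate and restores NAD, fell to 326 CPM (SHR) and 467 CPM (WKY) in batch 2, against 906 and 1028 CPM (SHR) and 1023 and 895 CPM (WKY) in batch 1. The batch ratio was 0.408 (log2 -1.29, SE 0.22, adjusted p = 0.00706), with -1.56 in SHR and -1.03 in WKY. The strain difference was -0.16 (SE 0.20, adjusted p = 0.748). Of the enzymes on the path from glucose to lactate, Gpi, Pfkm, Aldoa and Aldoc were called higher and Tpi1, Pgk1 and Ldha lower in batch 2. The kinases that close pyruvate dehydrogenase, Pdk1 and Pdk3, passed neither test. Pdk1, a HIF-1 target, had 17.2, 18.5 and 24.5 CPM in SHR against 22.6, 25.4 and 24.1 CPM in WKY (-0.27, SE 0.16, adjusted p = 0.514). Pdk3 had 23.1, 25.2 and 64.7 CPM in SHR against 34.4, 25.1 and 29.4 CPM in WKY, with SHR 3 high.

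Among the oxygen-regulated factors, Hif1a mRNA had 83.5, 105 and 64.0 CPM in SHR and 141, 106 and 70.6 CPM in WKY. The strain difference was -0.31 (SE 0.18, adjusted p = 0.509), and the gene was called lower in batch 2 (-0.68, SE 0.19, adjusted p = 0.0341). Epas1, which encodes HIF-2 alpha and is best known from endothelium, had 503, 638 and 462 CPM in SHR and 657, 675 and 57.8 CPM in WKY. A single library, WKY 3, lay far below the other 5. The strain difference was 0.75 (SE 0.74, adjusted p = 0.704) with all libraries and -0.23 in batch 1 alone. The batch difference was -1.60 (SE 0.82, adjusted p = 0.174), and DESeq2 called it (adjusted p = 0.0299).

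The prolyl hydroxylases sense oxygen and mark the HIF proteins. Egln1 (PHD2), the main one, varied little, with 55.1, 59.0 and 59.9 CPM in SHR and 48.2, 54.2 and 61.0 CPM in WKY (log2 fold change 0.09, SE 0.12, adjusted p = 0.77). Egln3 (PHD3), itself strongly induced by HIF, had 0.21, 0.357 and 15.0 CPM in SHR and 7.67, 0.37 and 8.71 CPM in WKY. It was high in both libraries of batch 2 and in WKY 1, and 4 to 7 counts in the other libraries limit the precision. The strain estimate of -2.15 (SE 1.63, adjusted p = 0.623) turned to 0.29 without WKY replicate 1. The batch estimate of 3.71 did not pass in edgeR (adjusted p = 0.12) and did in DESeq2 (4.03, adjusted p = 0.00436).

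The 2 mitophagy receptors differed in shape. Bnip3, a HIF target at the outer mitochondrial membrane, had 163, 90.8 and 262 CPM in SHR and 115, 112 and 73.9 CPM in WKY (log2 fold change 0.70, SE 0.43, adjusted p = 0.544), and SHR 2 lay inside the WKY range. Its relative Bnip3l had 133, 106 and 145 CPM in SHR and 118, 129 and 175 CPM in WKY (-0.12, SE 0.15, adjusted p = 0.756), and only DESeq2 called its batch difference of 0.39 (adjusted p = 0.0422). Of the collagen prolyl 4-hydroxylases, which hydroxylate collagen chains in the endoplasmic reticulum, P4ha1 reached 375 CPM (SHR) and 497 CPM (WKY) in batch 2, against 182 and 173 CPM (SHR) and 133 and 163 CPM (WKY) in batch 1. It rose 2.69-fold with batch 2 (1.43, SE 0.20, adjusted p = 0.00418) and differed by 0.04 (SE 0.20) between strains. P4ha2 passed neither test, with 187, 218 and 223 CPM in SHR and 159.7, 199 and 205 CPM in WKY (0.16, SE 0.15, adjusted p = 0.703).

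The remaining targets had positive strain estimates, 4 of the 4 tested, where 5981 of all 12614 genes did, and 0 of the 4 were called. Kdm3a, at 0.04, was near 0 and at -0.08 within batch 1. Ddit4 (REDD1), which is induced by hypoxia and by stress hormones and restrains mTORC1, had 121, 93.4 and 151 CPM in SHR and 52.2, 88.0 and 70.3 CPM in WKY. Every SHR library lay above every WKY library, by a gap of few CPM between SHR 2 and WKY 2. The means were 122 ± 28.8 CPM in SHR and 70.2 ± 17.9 CPM in WKY (SD, n = 3 each). The fold was 1.71 (log2 0.78, SE 0.25), with an unadjusted p of 0.0231 in edgeR, which became 0.304 after adjustment, and an adjusted p of 0.0874 in DESeq2. Leaving out 1 library at a time, the estimate stayed between 0.61 and 1.06, and it was 0.65 within batch 1 and 1.10 within batch 2.

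Adm, which encodes the vasodilator peptide adrenomedullin, had 251, 197 and 268 CPM in SHR and 73.2, 189 and 47.0 CPM in WKY. All 3 SHR libraries lay above the 3 WKY libraries, but WKY 2 was close to SHR 2. The means were 239 ± 37.2 CPM in SHR and 103 ± 75.7 CPM in WKY (SD, n = 3 each), and the fold was 2.52 (log2 1.33, SE 0.54, adjusted p = 0.389 in edgeR and 0.0921 in DESeq2). Without single libraries the log2 fold change ran from 0.77 to 1.99. The summed fibroblast markers were also higher in SHR within each batch. Of the 9 markers, 6 (Pdgfra, Dcn, Lum, Dpt, Tcf21 and Gsn) had all 3 SHR libraries above all 3 WKY libraries (66.7%, against 4.51% of all genes). DESeq2 called these 6 higher in SHR, where it called 5.14% of all genes it tested in either direction. Of the 6, edgeR called 1, Tcf21, where it called 0.254% of all genes. Col1a1 went the other way in batch 2 (-1.25 on the log2 scale) and Pi16 was at -0.07 in batch 1. The part of these markers in the Ddit4 and Adm differences was not tested. The authors' deposited log2 values, which have the batch difference removed, gave SHR minus WKY as 0.53 for Ddit4 and 0.93 for Adm.

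Ndrg1, a stress-response gene induced by hypoxia, had 70.2, 43.5 and 196 CPM in SHR and 24.7, 58.8 and 91.3 CPM in WKY. It was called higher in batch 2 (1.47, SE 0.40, adjusted p = 0.0337), and the strain ranges overlapped (0.67, SE 0.39, adjusted p = 0.536). Kdm3a, a histone H3K9 demethylase that HIF-1 induces, was at 46.5 CPM (SHR) and 38.5 CPM (WKY) in batch 2, against 22.0 and 18.9 CPM (SHR) and 20.7 and 22.3 CPM (WKY) in batch 1. Its batch fold was 2.02 (log2 1.02, SE 0.15, adjusted p = 0.00453), and its strain difference was 0.04 (SE 0.14). Ankrd37, a HIF-1 target in human cells, did not reach the count filter, with 7, 4 and 17 counts in SHR and 2, 5 and 15 counts in WKY.

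**Figure D3:**
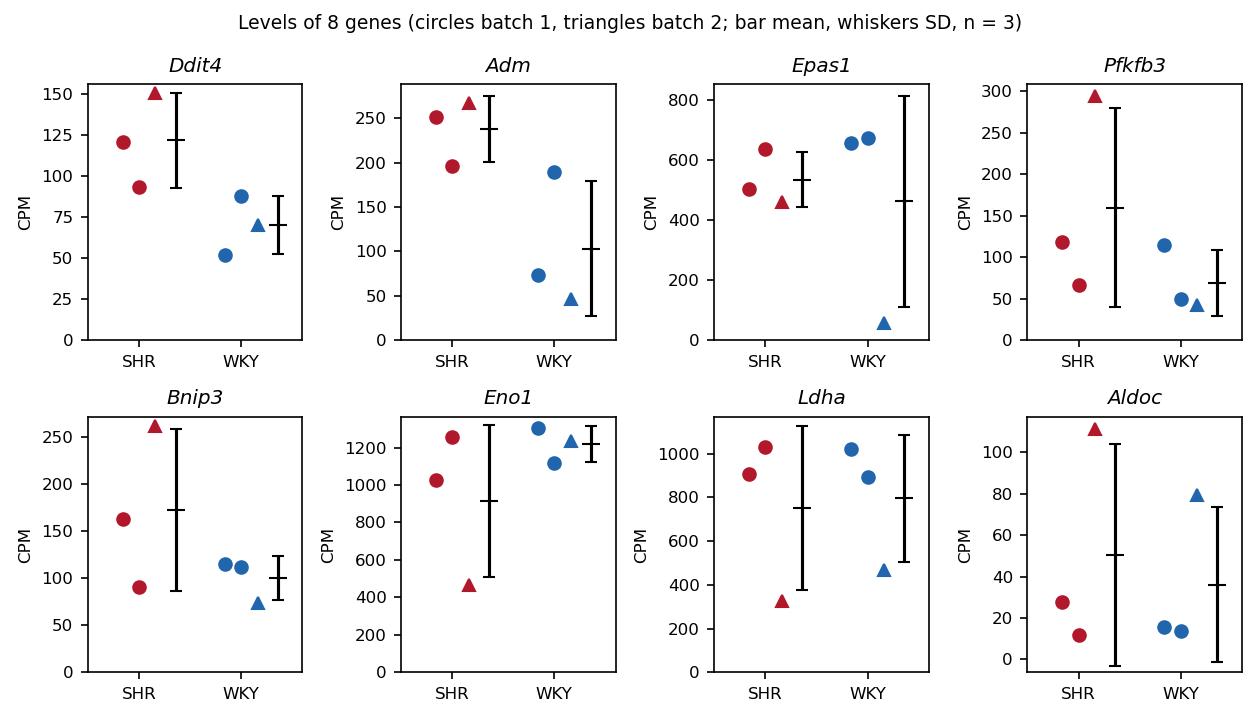
Levels in CPM of 8 genes in each library, SHR left of WKY, with circles for batch 1 and triangles for batch 2. Bars are means and whiskers SD (n = 3); Ddit4 and Adm show no overlap between strains, Epas1 is low in WKY 3 alone, and Ldha is low and Aldoc high in both batch 2 libraries.

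Since strain estimates of several genes rested on 1 batch, the strain difference was also compared between the batches, with an interaction term that leaves 2 residual degrees of freedom. In edgeR 0 of the 34 genes passed (0% of all genes did), while 9 had an unadjusted p below 0.05 (26.5%, against 12.7% of all genes). DESeq2 called 5 (14.7%), where it called 3.48% of all genes, so the 2 tools gave different answers here. The sign of the strain difference was opposite in the 2 batches for 17 of the 34 (50.0%, against 40.8% of all genes). In batch 2 each strain is a single library, so such a difference is that of SHR 3 or WKY 3 from its counterparts.

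Epas1 ranked 16 of 12614 by interaction p-value. The SHR minus WKY difference on the log2 scale was 3.00 in batch 2 and -0.23 in batch 1, and the interaction was 3.22 (SE 0.34, edgeR adjusted p = 0.136), or 3.20 (SE 0.38, adjusted p = 2.84e-14) in DESeq2. In WKY 3 the smooth muscle markers summed to 8067 CPM, against at most 1873 CPM in the other 5 libraries. Acta2 (3630 CPM) and Tagln (3043 CPM) gave most of that sum. Myh11, Smtn and Lmod1 were also at their highest in WKY 3. Des, Cnn1 and Actg2 were lower in WKY 3 (3.11, 7.65 and 3.42 CPM) than in SHR 3 (87.7, 17.3 and 27.0 CPM). The endothelial markers summed to 25.9 CPM in WKY 3, against 50.8 to 102 CPM elsewhere, and did not move together. Flt1 was at its lowest in WKY 3, 7.03 CPM, with 24.8 to 79.3 CPM elsewhere. Esam was at its highest there, 1.87 CPM, and Egfl7 was lower in SHR 3 (6.39 CPM) than in WKY 3 (14.7 CPM). The part of these markers in the Epas1 level was not tested. Pfkfb3 went the same way, at 2.80 in batch 2 and 0.23 in batch 1 (interaction 2.63, SE 0.93, edgeR adjusted p = 0.383), and DESeq2 called it higher (adjusted p = 0.0344). There SHR 3 was high instead, at 295 CPM. In SHR 3 the mesothelial markers summed to 1370.2 CPM, against 174 to 679 CPM in the other 5 libraries, and the fibroblast markers to 18789 CPM, against at most 12322 CPM. Gsn made up 11357 CPM of that fibroblast sum, against at most 2600 CPM elsewhere. Col1a1, at 4560 CPM in SHR 3, was lower there than in every other library but WKY 1. The part of these markers in the Pfkfb3 level was not tested. Hk1, Gapdh and Eno1 were called lower by DESeq2 (adjusted p = 0.0115, 0.00116 and 0.0131), with interactions of -1.20, -1.20 and -1.33 in edgeR (adjusted p = 0.228, 0.292 and 0.282). For Hk1 and Gapdh the WKY library of batch 2 was high, and for Eno1 the SHR library of batch 2 was low. Of the rest with an unadjusted p below 0.05, Pdk3 (1.44), Pfkfb4 (2.14) and Bnip3 (1.67) had positive and Pgam1 (-0.94) negative interactions.

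**Figure D4:**
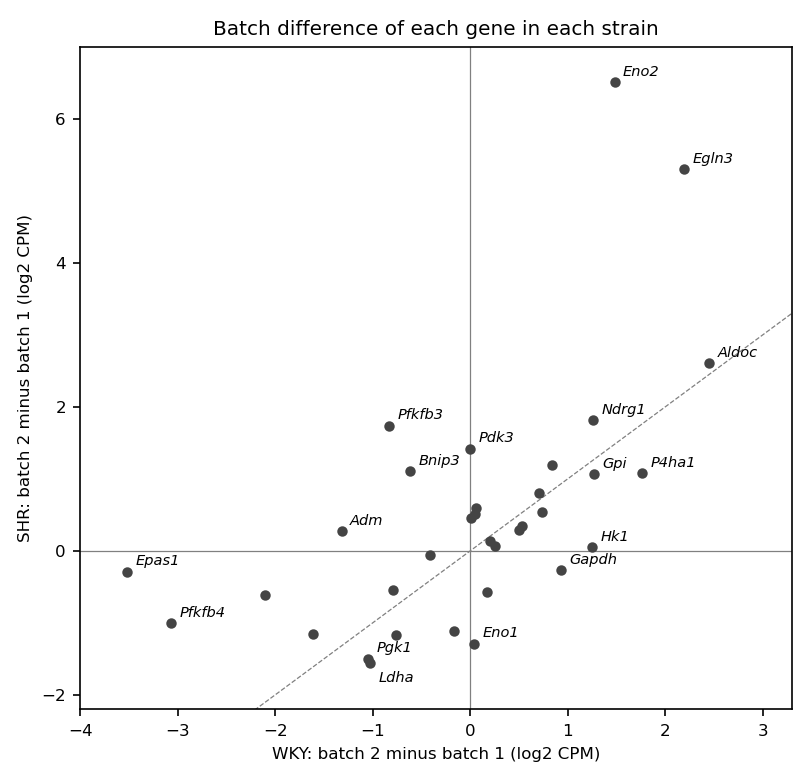
Batch 2 minus batch 1 in log2 CPM for each of the 34 tested genes, in SHR (vertical axis, 1 library against 2) and in WKY (horizontal axis, 1 against 2); the dashed line marks equal differences. Aldoc, at 2.61 in SHR and 2.45 in WKY, lies near the line, while Epas1, at -0.29 and -3.52, and Pfkfb3, at 1.74 and -0.83, lie far from it; the SHR value of Eno2 rests on a count listed at 0.

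The neighbouring genes of the pathway were taken from 5 further lists. Of 23 other genes of glycolysis and of glucose and lactate transport, 20 were in the table and 17 were tested. For strain 0 passed in edgeR, with 4 at an unadjusted p below 0.05 (23.5%, against 13.3% of all genes), and 2 passed in DESeq2 (11.8%, against 5.14%). These were Slc2a4 (GLUT4), the insulin-regulated transporter, with 10.9, 5.51 and 6.91 CPM in SHR and 0.606, 2.64 and 1.06 CPM in WKY (log2 fold change 2.45, SE 0.61, adjusted p = 0.231 in edgeR and 0.0063 in DESeq2), and Slc16a3 (MCT4), the lactate exporter. Slc16a3 had 1.57, 0.918 and 4.57 CPM in SHR and 5, 1.85 and 18.0 CPM in WKY, so the ranges overlapped, and the strain difference was -1.64 (SE 0.46, adjusted p = 0.265 in edgeR and 0.0438 in DESeq2). The strain difference of Pfkfb2, a further bifunctional enzyme, was -0.38 (adjusted p = 0.362). By batch, 1 of the 17 was called higher and 3 lower, together 23.5%, against 43.5% of all genes.

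Of 11 genes for pyruvate entry into mitochondria, all were tested and 0 passed for strain in edgeR or DESeq2, with 1 at an unadjusted p below 0.05 in edgeR (9.09%, against 13.3% of all genes). This was Mpc2, a subunit of the mitochondrial pyruvate carrier, with 42.9, 37.6 and 26.2 CPM in SHR and 28.5, 31.6 and 21.1 CPM in WKY (0.39, SE 0.13, adjusted p = 0.307). Next came Pdk4 (1.35, adjusted p = 0.416), a starvation-induced kinase of pyruvate dehydrogenase, and Pdha1 (-0.29, adjusted p = 0.465), a subunit of that enzyme. Pdk4 had 192 CPM (SHR) and 43.3 CPM (WKY) in batch 2, against 14.5 and 4.74 CPM (SHR) and 2.98 and 7.24 CPM (WKY) in batch 1, and was called higher there (3.75, adjusted p = 0.00703). By batch 3 of the 11 were called higher and 3 lower, together 54.5%, against 43.5% of all genes. Of 12 pentose phosphate and gluconeogenesis genes, 9 were tested and 0 passed for strain in edgeR, with 2 at an unadjusted p below 0.05 (22.2%, against 13.3% of all genes) and 1 called in DESeq2 (11.1%, against 5.14%). Taldo1, transaldolase, had 158, 148 and 81.2 CPM in SHR and 178, 182 and 132 CPM in WKY (-0.39, SE 0.15, adjusted p = 0.362), with overlapping ranges, and the strain difference of Rpia, ribose 5-phosphate isomerase, was 0.36 (adjusted p = 0.392). By batch 2 of the 9 were called higher and 4 lower, together 66.7%, against 43.5% of all genes.

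Of 36 other HIF targets, 32 were tested and 1, Car9, passed for strain in edgeR, where 0.254% of all genes did. In edgeR 2 had an unadjusted p below 0.05 (6.25%, against 13.3% of all genes). DESeq2 called 2 (6.25%, against 5.14% of all genes it tested). Car9 encodes carbonic anhydrase IX, a cell-surface enzyme widely used as a marker of hypoxia. It had 2.94, 1.99 and 13.1 CPM in SHR and 234, 238 and 403 CPM in WKY, far apart in both batches (log2 fold change -6.00, SE 0.45, adjusted p = 0.0177). Vldlr, a lipoprotein receptor, was the other gene that DESeq2 called, with 59.0, 49.7 and 113 CPM in SHR and 104, 112 and 549 CPM in WKY (-1.42, SE 0.30, adjusted p = 0.185 in edgeR and 0.000823 in DESeq2). Vegfa, the angiogenic growth factor, had 23.5, 50.7 and 74.6 CPM in SHR and 80.2, 40.1 and 98.7 CPM in WKY, which overlapped (-0.60, SE 0.39, adjusted p = 0.564). The median strain difference of the 32 was -0.07. By batch 7 were called higher and 8 lower, together 46.9%, against 43.5% of all genes. Of 15 partners and regulators of HIF, 0 passed for strain in edgeR or DESeq2, with 0 at an unadjusted p below 0.05 in edgeR (13.3% of all genes). By batch 6 were called higher and 5 lower, together 73.3%, against 43.5% of all genes. The smallest strain p-values were those of Hif3a (0.69, adjusted p = 0.423), a further alpha subunit, Arnt (0.25, adjusted p = 0.466), the shared partner, and Egln2 (0.20, adjusted p = 0.556), a prolyl hydroxylase. Hif3a had 34.0 CPM (SHR) and 11.9 CPM (WKY) in batch 2, against 2.62 and 3.06 CPM (SHR) and 2.47 and 2.33 CPM (WKY) in batch 1, and was called higher there (2.99, adjusted p = 0.00213).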

How the data were processed

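RNA-seq libraries of cultured aortic cells were analysed, 3 of SHR and 3 of WKY. The authors deposited estimated counts per gene, not normalised, and a table of log2 values in which the means of the batches are equal in every gene (largest difference 7.5e-09), so batch had been removed. The submitters' processing notes name the Rnor_6.0 build with RSEM 1.2.28, DESeq2 1.42.1 and Bowtie2 2.4.4, without roles. For strand, overlapping genes and near-identical copies, the counting rule was not given in the sources used here.

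Before testing, these counts were rounded. Of 16770 genes, 16193 had a count and 12614 passed edgeR's filterByExpr by strain. Libraries were scaled by TMM factors (0.87 to 1.07). Strain, batch and, in a separate fit, their interaction were tested, two-sided, with edgeR 4.0.16 (glmQLFit, glmQLFTest, R 4.3.3), in a model of batch plus strain that leaves 3 residual degrees of freedom, and adjusted by Benjamini-Hochberg over all 12614 genes. An adjusted p below 0.05 made a call. Each SE is the fold change over the root of its F statistic. DESeq2 1.42.0 was an alternative, with other scaling, no filter, no batch or strain term, a replicate block, batch 1 alone, copies added and single libraries left out. Differences within a batch or strain are of mean log2 CPM with a prior count of 2. The code was tested on simulated data. The log2 values were used only where named, not in tests.

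Same-numbered SHR and WKY libraries deviated from their strain means together (correlations 0.30, 0.40 and 0.66), as did SHR 2 with WKY 1 (0.49) and SHR 1 with WKY 2 (0.48). Number 3 is batch 2, and no label says what a number shares. The limit of 3 counts covers counting error only.

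The members and lists were chosen with earlier results of these data known. Any member could be named. Given in full were those with an unadjusted strain p below 0.05 and, for each step, that with the smallest strain p. In each other list, called genes were named, otherwise the 3 with the smallest strain p, and Car9 and Vegfa. Other genes named were chosen after their values were seen. Promoters are from RefSeq (GRCr8) by gene symbol. A gene of the pentose phosphate list is counted but not reported here.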

Additional observations from a re-analysis of the deposited data

How the results depend on the processing

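The count of genes called for strain was 0 in every alternative and with any 1 library left out. The count called for batch was 13 and ran from 8 to 12 with 1 library left out. The interaction count was 0 in edgeR and 5 in DESeq2. The correlations did not pair the libraries by number within batch 1 (0.30 and 0.40, against 0.49 and 0.48 across numbers). With the replicate block 0 genes were called for strain, so no call changed, and Pfkl turned to 0.01. Strain estimates near 0 changed sign elsewhere. Without the batch term Gpi, Eno2 and P4ha1 were at -0.02, 0.20 and -0.12. In batch 1 alone Hk1 was at 0.35, Pfkl at 0.00, Tpi1 at 0.02, Gapdh at 0.15, Ldha at 0.01, Pdk3 at -0.30, Kdm3a at -0.08 and Epas1 at -0.23. With the locus that shares its reads added, a choice made after the data were seen, Slc2a3 had a strain difference of 0.26 and an interaction of -0.19. The causes were not tested. With 1 library left out, the strain log2 fold changes that crossed 0 ran over these ranges: Slc2a1 -0.45 to 0.08, Hk1 -0.22 to 0.36, Hk2 -0.82 to 0.25, Gpi -0.06 to 0.09, Pfkl -0.27 to 0.27, Pfkfb4 -0.99 to 0.13, Tpi1 -0.19 to 0.03, Gapdh -0.39 to 0.15, Ldha -0.27 to 0.01, Pdk3 -0.29 to 0.44, Egln3 -3.79 to 0.29, P4ha1 -0.11 to 0.27, Kdm3a -0.07 to 0.13, Epas1 -0.22 to 1.35. The batch log2 fold changes that did so were Slc2a1 0.00 to 0.57, Pfkfb3 -0.96 to 1.67, Gapdh -0.28 to 0.93, Eno1 -1.30 to 0.03, Pkm -0.60 to 0.17, Pdk3 -0.02 to 1.41, Bnip3 -0.62 to 1.04, Adm -1.48 to 0.25. Pfkfb4 lost its batch call with median-of-ratios scaling and with no filter on low counts, at -1.91 and -1.95. Scaling by median of ratios moved the median of all genes by 0.018 (strain) and 0.038 (batch). With 3 libraries a strain, 2 or 3 residual degrees of freedom and 1 library per strain in batch 2, small differences may have been missed.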
